A study of Homo sapiens with 12 samples.

Results

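The 6 arrays described here follow HK-2 cells under CsA from 12 h to 48 h, 3 arrays at each time, and are the 6 of 12 arrays in the series whose titles name CsA and not a control sample. HK-2 is a human cell line made by immortalizing epithelium of the proximal tubule, and CsA is read here as cyclosporin A, the immunosuppressant that binds cyclophilins and inhibits the phosphatase calcineurin. The other 6 arrays are vehicle controls of the same line, 3 at 12 h and 3 at 48 h. All cells were unmodified HK-2, kept in a medium with added epidermal growth factor, hydrocortisone, insulin, transferrin and selenite, and treated close to confluence. Neither the dose of CsA nor the vehicle is stated in the sources used here. The series sought expression signatures of kidney toxicity, and the change over time under CsA asks which transcripts move as exposure lengthens. The controls give the change over the same hours without CsA. The cells also stayed in culture longer, so the hours under CsA and the hours in the dish cannot be told apart within the CsA arrays alone.

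HK-2 cells are used as a model of the proximal tubule, the nephron segment that reclaims most filtered solute and that is injured by calcineurin inhibitors. Cells that load the endoplasmic reticulum (ER) with unfolded protein raise chaperones through ATF6 and XBP1, while the kinase PERK and other sensors of amino acid supply or stress raise translation of ATF4, whose targets include DDIT3 (the factor CHOP), amino acid transporters and tRNA synthetases. Cells that leave the cell cycle lower genes driven by E2F factors at the start of DNA synthesis and genes held by the DREAM complex at mitosis, and p53 can promote that exit through the kinase inhibitor CDKN1A. These are general properties of the pathways and not results of these arrays.

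Expression is given as the deposited log2 value of a probe set, so that a difference of 1 is a 2-fold change, and a value under 4 is treated as near background. A change is the mean of the 48 h arrays minus that of the 12 h arrays, with its standard error (SE) and with a p-value from limma adjusted by Benjamini-Hochberg over all 23671 tested probe sets. A gene is called at an adjusted p under 0.05. The labels call the arrays biological replicates without saying whether cultures were separate, so p-values measure the spread between these arrays. In RNA from a whole culture, fewer cells of a kind and less RNA per cell cannot be told apart.

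The arrays had 42.2% to 42.8% of probe sets above 4, and their number limits the precision. Replicate 3 of CsA 48 h stood apart. Its hybridization control probe sets had a median of 6.95, against 9.60 to 10.95 on the other 11 arrays, and its mitotic genes were higher than on the other CsA 48 h arrays. The arrays numbered 1 at 48 h, under CsA and in the control, had poly-A control medians of 4.11 and 3.53, against 7.70 to 9.64 elsewhere. The part of these differences in the results was not tested, and counts that rest on one of these arrays are given with and without it. The median SD of a probe set was 0.223 at CsA 48 h and 0.117 at CsA 12 h. Proximal tubule markers SLC4A4, CDH6, CDH16, PDZK1 and PAX8 were above 4 on all 6 CsA arrays, SLC2A2 was so only at 12 h, and LRP2, CUBN, GGT1, ANPEP and AQP1 were under 4 on all 6. The epithelial markers KRT8, KRT18, KRT19 and EPCAM were above 4 and CDH1 was under 4. The endothelial markers PECAM1, VWF, CDH5 and KDR and the leukocyte markers PTPRC, CD3E and CD14 were under 4 on all 6, while ERG, also of the endothelial list, was called lower (5.07 to 3.94). Some markers of other cell types were above 4 on all 6 CsA arrays. They were COL1A1, LUM and PDGFRB of fibroblast and mesangial cells, with 12 h means of 9.76, 8.97 and 4.85, PODXL of podocytes (10.31), and SLC12A1, AQP2 and AQP3 of later tubule segments (4.26, 5.50 and 5.86). Of these, LUM and AQP3 were called lower, at -1.79 and -1.11. The fibroblast markers PDGFRA, COL3A1 and THY1, the podocyte markers NPHS1 and WT1, and SLC12A3 and CALB1 of the distal tubule were under 4 on all 6. The part of other cell types in the results was not tested.

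Promoters are shown first, for gene groups for which such elements are described. The groups were listed as genes of those pathways, so the shares with an element describe the lists. They do not test a link to CsA. Each sequence is the 250 bases before the start of the gene in RefSeq (GRCh38.p14), read 5′ to 3′ on the strand of the gene, with the matched element in capitals. Matches were sought on both strands in 27305 promoters of that length, and a match is a description of letters, not a site of binding. The ER stress response element was written as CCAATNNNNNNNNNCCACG. It was found in 7 of the 24 ER chaperone and degradation genes with a promoter (29.2%) and in 22 of all promoters (0.0806%). The HSPA5 sequence lies at chr9:125241344-125241593 (minus strand), that of ERO1B at chr1:236281959-236282208 (minus) and that of CALR at chr19:12938359-12938608 (plus).
HSPA5: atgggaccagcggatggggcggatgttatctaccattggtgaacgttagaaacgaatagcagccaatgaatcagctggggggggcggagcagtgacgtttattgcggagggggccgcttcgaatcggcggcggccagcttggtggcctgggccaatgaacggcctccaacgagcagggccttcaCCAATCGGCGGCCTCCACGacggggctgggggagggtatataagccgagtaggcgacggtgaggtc
ERO1B: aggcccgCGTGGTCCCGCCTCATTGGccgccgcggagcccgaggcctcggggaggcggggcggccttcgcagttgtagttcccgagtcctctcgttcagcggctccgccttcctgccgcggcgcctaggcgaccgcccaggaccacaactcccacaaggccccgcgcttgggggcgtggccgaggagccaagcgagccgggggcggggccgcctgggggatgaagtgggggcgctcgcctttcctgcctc
CALR: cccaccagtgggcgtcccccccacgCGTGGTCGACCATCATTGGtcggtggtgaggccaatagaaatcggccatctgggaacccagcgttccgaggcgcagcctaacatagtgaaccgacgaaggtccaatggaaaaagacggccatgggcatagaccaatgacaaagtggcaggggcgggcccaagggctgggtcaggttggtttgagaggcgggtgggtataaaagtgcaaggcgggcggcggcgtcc

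The C/EBP-ATF response element (CARE), to which ATF4 and CHOP bind as dimers with C/EBP factors, was written as TGATGNAA. It was found in 3 of the 23 genes of the ATF4 and CHOP list with a promoter (13.0%) and in 3.19% of all promoters. The ATF3 sequence lies at chr1:212565157-212565406 (plus strand) and that of ASNS at chr7:97872409-97872658 (minus).
ATF3: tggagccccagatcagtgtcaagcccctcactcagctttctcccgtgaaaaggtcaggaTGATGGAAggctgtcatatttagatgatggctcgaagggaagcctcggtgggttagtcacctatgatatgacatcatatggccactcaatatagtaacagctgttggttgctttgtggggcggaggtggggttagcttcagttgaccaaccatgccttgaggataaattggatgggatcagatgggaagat
ASNS: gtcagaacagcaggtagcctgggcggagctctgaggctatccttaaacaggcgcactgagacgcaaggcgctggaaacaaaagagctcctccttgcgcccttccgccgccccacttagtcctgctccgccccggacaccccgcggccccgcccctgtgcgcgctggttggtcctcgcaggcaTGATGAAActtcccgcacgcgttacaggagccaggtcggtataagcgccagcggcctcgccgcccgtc

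The cell cycle homology region (CHR), the element through which the DREAM complex acts on mitotic genes, was written as TTTGAA. It was found in 16 of 33 mitotic genes with a promoter (48.5%) and in 13.6% of all promoters. The KIF11 sequence lies at chr10:92592880-92593129 (plus strand) and that of SPC25 at chr2:168890431-168890680 (minus). The match starts 28 bases before the gene start in KIF11 and 247 bases before it in SPC25.
KIF11: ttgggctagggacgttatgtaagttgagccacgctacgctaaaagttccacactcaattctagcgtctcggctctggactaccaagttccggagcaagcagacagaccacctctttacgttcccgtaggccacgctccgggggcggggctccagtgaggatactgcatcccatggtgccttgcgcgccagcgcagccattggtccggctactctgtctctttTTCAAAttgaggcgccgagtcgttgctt
SPC25: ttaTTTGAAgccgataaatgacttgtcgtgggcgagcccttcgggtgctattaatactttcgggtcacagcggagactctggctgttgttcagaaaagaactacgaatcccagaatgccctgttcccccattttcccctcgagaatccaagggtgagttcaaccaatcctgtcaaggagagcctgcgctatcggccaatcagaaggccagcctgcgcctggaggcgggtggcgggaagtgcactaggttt

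E2F sites were written as TTTGGCGC or TTTCCCGC. They were found in 12 of 35 DNA replication genes with a promoter (34.3%) and in 1.96% of all promoters. The MCM6 sequence lies at chr2:135876444-135876693 (minus strand) and that of PCNA at chr20:5126623-5126872 (minus).
MCM6: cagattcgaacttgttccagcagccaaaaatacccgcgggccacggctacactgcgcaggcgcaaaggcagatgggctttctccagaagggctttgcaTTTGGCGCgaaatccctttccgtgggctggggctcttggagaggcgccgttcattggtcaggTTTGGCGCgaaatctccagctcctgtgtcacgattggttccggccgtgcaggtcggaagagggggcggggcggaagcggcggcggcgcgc
PCNA: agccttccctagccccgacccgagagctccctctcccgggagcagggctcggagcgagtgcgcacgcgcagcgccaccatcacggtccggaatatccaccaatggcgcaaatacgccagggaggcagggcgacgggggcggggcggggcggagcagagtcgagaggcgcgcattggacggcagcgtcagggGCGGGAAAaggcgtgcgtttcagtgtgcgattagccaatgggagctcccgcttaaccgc

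From 12 h to 48 h under CsA, most measured genes of the ER and ATF4 stress responses rose and most genes of DNA replication and mitosis fell. Of 11154 genes, 4788 were called (42.9%), 2460 of them higher at 48 h (22.1%) and 2328 lower (20.9%). By probe set, 4571 of 23671 were called higher (19.3%) and 4545 lower (19.2%). Changes of at least 2-fold were called for 841 genes higher (7.54%) and 1041 lower (9.33%), and changes of at least 4-fold for 143 higher (1.28%) and 313 lower (2.81%). The 3 arrays of one time lay wholly above those of the other for 61.4% of genes. Over all genes the median change was 0.03. Without replicate 3 of CsA 12 h, 1572 genes were called higher.

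The 12 largest rises were TRIM22, BEX2, ERO1B, NUPR1, ATF3, IL20RB, DDIT3, HRK, CIMAP1B, KLHDC7B and the noncoding RNAs MAP4K3-DT and CARINH, with log2 changes of 6.08 to 3.80. TRIM22, a ubiquitin ligase inducible by p53 and interferon, read 3.17, 3.08 and 2.38 on the CsA 12 h arrays and 9.48, 9.52 and 7.85 at 48 h. It passed from near background to a clear level on every array, a change of 6.08 (SE 0.50, adjusted p = 0.000744 by limma). HRK, a BH3-only protein that promotes apoptosis, read 4.75, 4.59 and 4.45 at 12 h and 8.96, 8.43 and 9.33 at 48 h, a change of 4.31 (SE 0.24). There were 6 genes that went from under 4 on every CsA 12 h array to above 6 on every CsA 48 h array: TRIM22, NUPR1, IL20RB, KLHDC7B, ZFHX4-AS1 and DORIP1. Their means rose in the controls too, for TRIM22 from 2.91 to 7.79 and for IL20RB from 3.45 to 6.31. A fold change against a value near background is uncertain, since GCRMA compresses dim probe sets.

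The 12 largest falls were NEIL3, ASF1B, BRIP1, DEFB1, CLDN2, ORC1, NCAPH, ZBED2, TMT1A, SPC25, RRM2 and WDR76, with changes of -6.20 to -5.18. NEIL3, a DNA glycosylase, read 9.74, 9.52 and 9.70 at 12 h and 2.17, 2.26 and 5.93 at 48 h. The groups did not overlap, and the highest 48 h value was that of replicate 3. There were 11 genes that went from above 6 on all CsA 12 h arrays to under 4 on all CsA 48 h arrays: ZBED2, TMT1A, WDR76, FAM111B, SLC2A2, ESCO2, TXNIP, EGF, FANCM, HMX2 and CLSPN. Their means fell in the controls too, for ZBED2 from 8.01 to 3.63, for WDR76 from 8.64 to 5.61 and for SLC2A2 from 8.07 to 6.92. TMT1A was read from its brightest probe set, and its other probe set changed by 0.08.

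**Figure D1:**
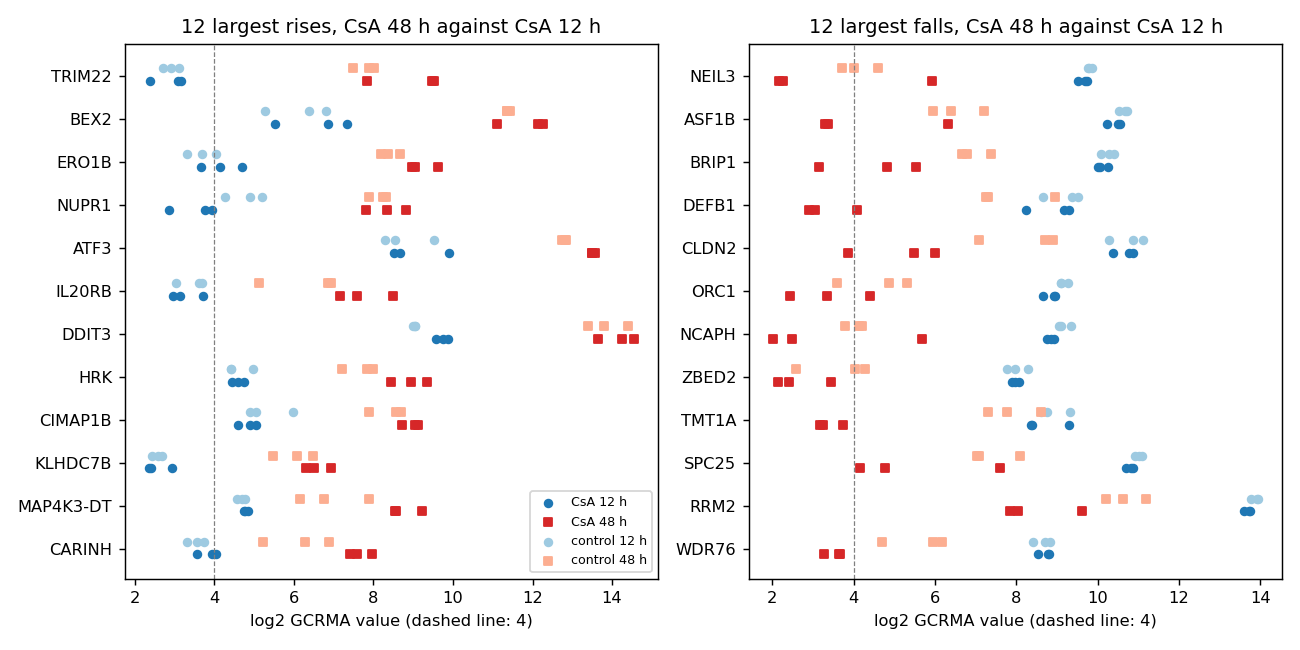
Log2 values (x axis) on each of the 12 arrays for the 12 largest rises (left) and the 12 largest falls (right) from CsA 12 h to CsA 48 h; each point is 1 array, dark for CsA and pale for control, and the dashed line marks 4. CsA 48 h and CsA 12 h points do not overlap for any gene drawn, by the rule that chose them. In the controls TMT1A has means of 8.90 at 12 h and 7.90 at 48 h and DEFB1 changes by -1.34, against -5.30 and -5.57 under CsA. Other drawn genes move further in the controls, DDIT3 by 4.84, ATF3 by 4.02, ORC1 by -4.57 and SPC25 by -3.61.

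ATF4 and CHOP genes rose. Of 28 measured, 24 were called higher (85.7%, against 22.1% over all genes) and none lower. The median change was 1.82 against 0.03 over all genes. DDIT3, which encodes CHOP, a factor that links prolonged ER stress to cell death, read 9.87, 9.56 and 9.74 at 12 h and 14.55, 13.65 and 14.25 at 48 h. Every 48 h array was higher, and the change was 4.42 (SE 0.24, adjusted p = 0.000316 by limma). ATF3, a stress-induced factor, read 9.89, 8.68 and 8.51 and then 13.50, 13.57 and 13.49, a change of 4.49 (SE 0.37). The 48 h arrays were nearly equal while the 12 h arrays spread over more than 1 unit. ATF4 itself, controlled largely at translation, changed by 1.06 (SE 0.12).

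Amino acid transport and synthesis genes of that list included called and uncalled members. SLC3A2, the heavy chain shared by several amino acid exchangers, read 10.28, 9.98 and 10.21 at 12 h and 13.98, 13.91 and 13.82 at 48 h, a change of 3.75 (SE 0.11, adjusted p = 0.000133). ASNS, asparagine synthetase, read 10.66, 9.53 and 10.64 and then 13.31, 13.16 and 13.63, a change of 3.09 (SE 0.34). The times did not overlap for either gene, as for 61.4% of all genes. SLC7A11, the cystine importer that pairs with SLC3A2, changed by 2.62 and CHAC1, which breaks down glutathione, by 2.74, and the secreted signals GDF15, VEGFA and STC2 by 3.17, 3.06 and 2.45. The 4 members not called were the stress gene DDIT4 at 0.37, the serine synthesis genes PHGDH and PSAT1 at 0.31 and -0.08, and the amino acid importer SLC38A2 at 0.04. In the controls the list had 26 members called higher and a median of 1.91.

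ER chaperone and degradation genes rose too. Of 27 measured, 23 were called higher (85.2%, against 22.1% over all genes) and none lower, with a median change of 1.40. ERO1B, an oxidase that makes disulfides for newly folded proteins, read 4.71, 4.13 and 3.67 at 12 h and 8.96, 9.04 and 9.62 at 48 h. It changed by 5.04 (SE 0.31, adjusted p = 0.000373 by limma), and its other probe set by 4.73. HSPA5, the chaperone BiP, read 15.24, 14.91 and 15.40 and then 16.23, 16.24 and 16.08, near the top of the scale at both times. Its change was 1.00 (SE 0.15), and a dimmer probe set of HSPA5 changed by 3.52. The BiP cofactors DNAJB9, SDF2L1 and HYOU1 changed by 2.30, 2.43 and 2.30, and the degradation factors HERPUD1 and SEL1L by 2.27 and 2.25.

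Several members of the ER list were not called. CALR, calreticulin, whose promoter holds the ER stress element, changed by 0.68 (SE 0.34, adjusted p = 0.164), and its other probe sets ranged from -0.56 to 1.46. ERO1A, the paralog of ERO1B, changed by 0.08, and SEC61B and P4HB also did not pass the threshold. In the controls 24 members were called higher, with a median of 1.70. At 12 h the mean of the list was 10.70 to 10.84 on the control arrays, below each of the 3 CsA arrays, of which the highest was 11.36. At 48 h the means were 12.49 to 12.69 and 12.35 to 12.74, which overlap.

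**Figure D2:**
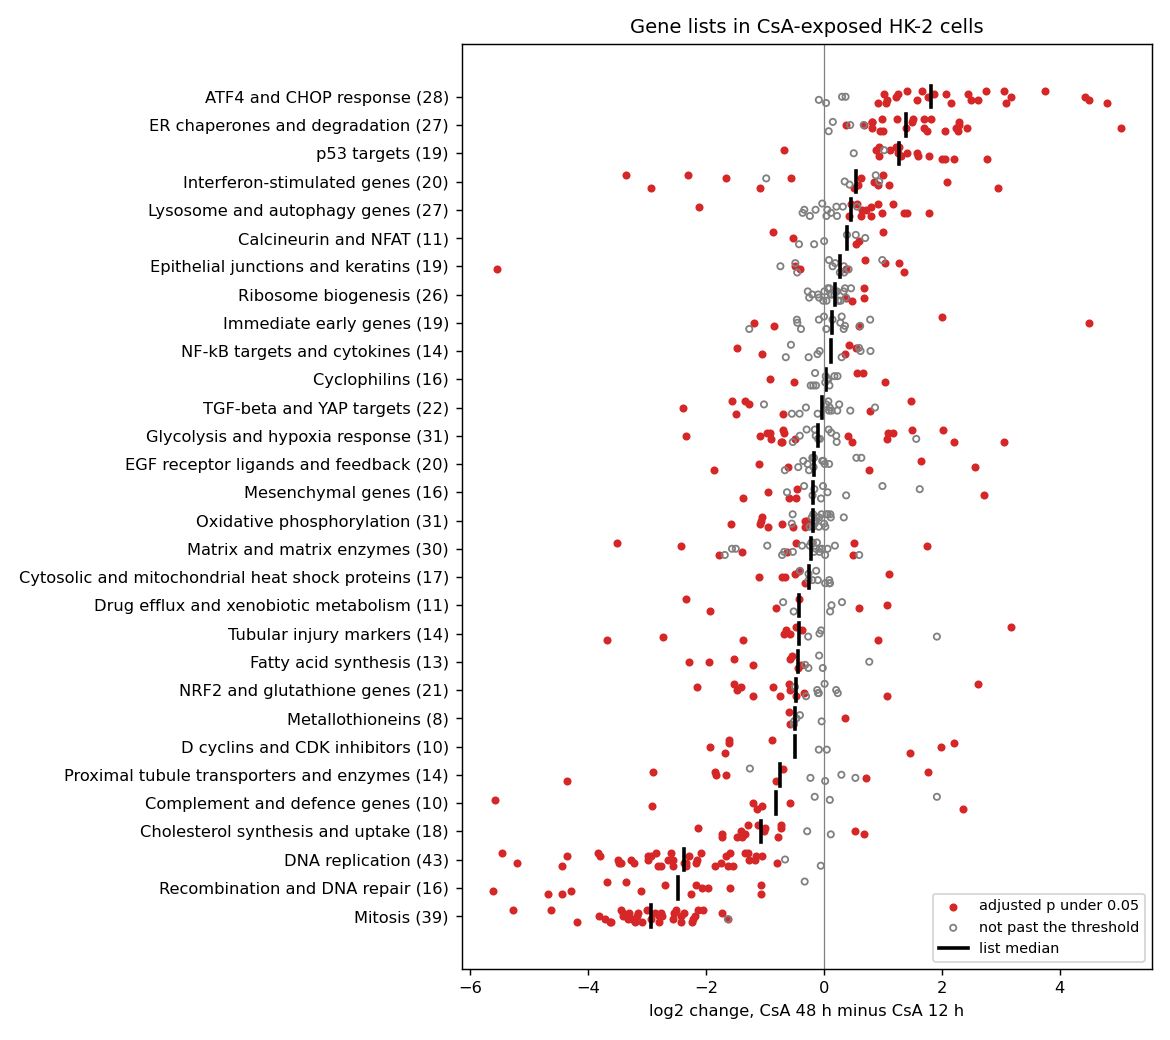
Log2 change from CsA 12 h to CsA 48 h (x axis) of each measured member of the gene lists with at least 5 measured genes (rows, with the number measured); red points are genes past an adjusted p of 0.05, open points are not, and bars are list medians. The ATF4 and ER lists lie to the right, with medians of 1.82 and 1.40, and replication, repair and mitosis to the left, with medians of -2.38, -2.48 and -2.93.

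DNA replication genes fell. Of 43 measured, 41 were called lower (95.3%, against 20.9% over all genes) and none higher, with a median change of -2.38. MCM6, a subunit of the replicative helicase whose promoter holds a pair of E2F sites, read 12.42, 12.38 and 12.39 at 12 h and 9.82, 9.78 and 9.84 at 48 h. It changed by -2.58 (SE 0.08, adjusted p = 0.000133 by limma). PCNA, the sliding clamp of DNA polymerases, read 14.49, 14.39 and 14.40 and then 12.52, 12.38 and 11.85, a change of -2.17 (SE 0.19). RRM2, the ribonucleotide reductase subunit that limits nucleotide supply, read 13.73, 13.76 and 13.61 and then 8.03, 7.84 and 9.62. All these times were apart, as for 61.4% of all genes, and RRM2 was highest at 48 h on replicate 3.

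Factors that act at origins ranged widely. ORC1, the largest origin recognition subunit, changed by -5.45, ORC6 by -2.82 and GINS4, of the helicase complex, by -4.35, and the helicase subunits MCM7 and MCM2 by -1.85 and -1.63. CDC6, which loads the helicase, changed by -0.66 (SE 0.41, adjusted p = 0.248), and RFC5, a clamp loader subunit, by -0.05. The other RFC5 probe sets changed by -2.35 to -1.90, so its brightest probe set stands apart from them.

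Mitotic genes fell, and the count depended on replicates. Of 39 measured, 38 were called lower (97.4%, against 20.9% over all genes) and none higher, with a median change of -2.93. Without replicate 1 of CsA 48 h, or without any 1 of the CsA 12 h arrays, 21 were called. Without replicate 3 of CsA 48 h, 39 were called and the median was -3.49. KIF11, a spindle motor, read 11.45, 11.49 and 11.53 at 12 h and 6.75, 6.73 and 8.44 at 48 h, a change of -4.18 (SE 0.47, adjusted p = 0.00175 by limma). SPC25, a kinetochore protein, read 10.70, 10.83 and 10.86 and then 4.78, 4.17 and 7.61. Replicate 3 was the highest 48 h array for both genes, and neither gene overlapped between times, as for 61.4% of all genes.

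MKI67, the proliferation marker Ki-67, read 10.94, 11.27 and 11.20 at 12 h and 7.08, 6.62 and 9.49 at 48 h, a change of -3.41 (SE 0.74, adjusted p = 0.015 by limma). The call was lost without CsA 12 h replicates 2 or 3, or CsA 48 h replicate 1. FOXM1, a factor for mitotic genes, read 9.65, 9.80 and 9.66 and then 5.56, 4.04 and 8.07. It changed by -3.81 (SE 0.97, adjusted p = 0.0254), and replicate 3 was again the highest 48 h array. CDC20, an activator of the anaphase-promoting complex, was the member not called, at -1.63 (SE 0.51, adjusted p = 0.0502). The list mean was 7.98, 7.43 and 9.88 on the CsA 48 h arrays and 9.44, 8.95 and 8.99 on the control 48 h arrays. Replicate 3 was thus above all 3 controls and replicates 1 and 2 below them.

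Recombination and repair genes followed, with 15 of 16 called lower (93.8%, against 20.9% over all genes), none higher and a median of -2.48. CLSPN (claspin), a checkpoint mediator, read 6.30, 6.28 and 6.34 at 12 h and 2.88, 2.95 and 3.02 at 48 h, from a modest level to near background on all arrays. BRIP1, EXO1 and BARD1, a helicase, a nuclease and the partner of BRCA1, changed by -5.61, -4.68 and -4.44. XRCC2 was the member not called, at -0.32.

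**Figure D3:**
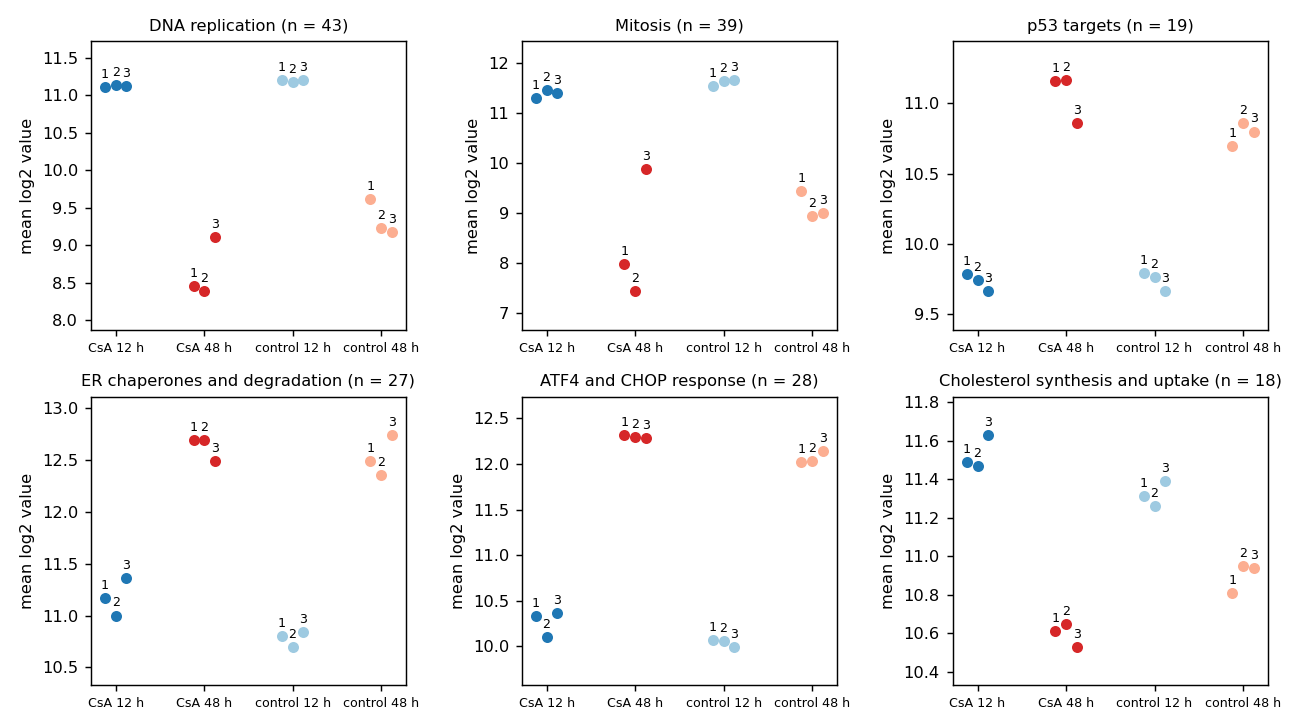
Mean log2 value (y axis) of the measured members of 6 gene lists on each array, in the 4 groups; the digits are the replicate numbers. On the CsA 48 h arrays the mitosis mean is 7.98, 7.43 and 9.88 for replicates 1, 2 and 3, and the ATF4 and CHOP mean is 12.32, 12.30 and 12.28.

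The brakes on the cycle moved both ways. CDKN1A (p21), an inhibitor of cyclin-dependent kinases, read 12.05, 11.69 and 11.76 at 12 h and 14.31, 14.41 and 13.39 at 48 h. It changed by 2.21 (SE 0.29, adjusted p = 0.00286 by limma), and replicate 3 was the lowest of the 48 h arrays. CDKN2B and CDKN1C, other inhibitors, changed by 1.99 and 1.46, while CDKN1B changed by -0.88 and CDKN2D by -1.62. The D cyclins CCND1 and CCND3, which start the cycle, changed by -1.68 and -1.93. Of 10 genes in the list, 3 were called higher (30%) and 5 lower (50%), against 22.1% and 20.9% over all genes.

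Of 19 p53 targets measured, 16 were called higher (84.2%) and 1 lower (5.26%), against 22.1% and 20.9% over all genes. The median change was 1.28. The activity of p53 was not measured, and SESN2 is also a member of the ATF4 and CHOP list. MDM2, the ligase that degrades p53, read 10.45, 10.62 and 10.40 at 12 h and 12.33, 12.46 and 12.03 at 48 h, a change of 1.78 (SE 0.14). ZMAT3 and GADD45A changed by 2.77 and 2.05, PHLDA3 by 2.01 and SESN1 by 1.60. TP53I3, an oxidoreductase, was the member called lower, at -0.67, a call lost without any 1 of the CsA 12 h arrays. BAX and PMAIP1, which promote apoptosis, changed by 1.02 (adjusted p = 0.0692) and 0.51 (adjusted p = 0.0567) and were not called.

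Cholesterol genes fell as a group. Of 18 measured, 14 were called lower (77.8%) and 2 higher (11.1%), against 20.9% and 22.1% over all genes. The median change was -1.07. The 2 higher calls, STARD4 and PMVK, were kept without replicate 3 of CsA 48 h and lost without any 1 of the other 5 CsA arrays. HMGCS1, which makes the precursor of mevalonate, read 11.82, 11.78 and 11.79 at 12 h and 10.00, 10.16 and 10.04 at 48 h, a change of -1.73 (SE 0.09, adjusted p = 0.000258 by limma). FDPS, MVD and IDI1, later enzymes of the pathway, changed by -1.47, -2.14 and -1.29, and the IDI1 probe sets ran from -1.29 to 0.51. INSIG1, the sterol sensor partner, changed by -1.40. Of 17 promoters of this list, 1 held the sterol element TCACNCCAC (5.88%), against 0.875% of all promoters. It was that of SREBF2, which changed by -0.28 (adjusted p = 0.122 by limma) and was not called.

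Fatty acid synthesis genes had 8 of 13 called lower (61.5%, against 20.9% over all genes), with a median of -0.43. None were called higher (1 without CsA 48 h replicate 3). ELOVL6, an elongase of long-chain fatty acids, read 9.90, 10.02 and 10.27 at 12 h and 7.68, 7.79 and 7.86 at 48 h, a change of -2.28 (SE 0.13). FASN and ACLY changed by -1.95 and -1.21, and SCD, the desaturase, by -0.08.

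Proximal tubule genes split. Of the 36 listed, 14 were measured, with a median of -0.75. Of these, 7 were called lower (50%) and 2 higher (14.3%), against 20.9% and 22.1% over all genes. SLC2A2, the glucose exporter GLUT2, read 7.94, 8.15 and 7.02 at 12 h and 3.07, 3.08 and 3.87 at 48 h, a change of -4.36 (SE 0.37, adjusted p = 0.000764 by limma). SLC4A4, the basolateral sodium bicarbonate cotransporter, read 11.03, 11.14 and 11.04 and then 9.13, 9.40 and 9.19. CDH6, kidney cadherin, read 13.75, 13.70 and 13.74 and then 11.91, 11.92 and 11.84, a change of -1.84 (SE 0.08). All CsA 48 h arrays lay below all 12 h arrays for these 3 genes, and the times were apart for 61.4% of all genes. PAX8, a kidney lineage factor, read 11.18, 11.12 and 11.24 and then 12.07, 11.72 and 11.91, and with MIOX it was one of the 2 called higher.

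Among junction genes CLDN2, the claudin of the leaky proximal tubule, read 10.86, 10.77 and 10.37 at 12 h and 6.00, 5.48 and 3.87 at 48 h. It changed by -5.55 (SE 0.54, adjusted p = 0.00118 by limma). OCLN (occludin) changed by 1.36, and KRT80 and PKP2 by 1.27 and 1.05, so 5 of 19 junction and keratin genes were called higher (26.3%) and 3 lower (15.8%), near the 22.1% and 20.9% over all genes. The higher calls numbered 3 without CsA 12 h replicate 2 or 3, and the lower calls 1 without either of these or CsA 48 h replicate 1 and 5 without CsA 48 h replicate 3. Among mesenchymal genes SNAI2, a repressor of epithelial genes, read 10.30, 9.03 and 9.36 and then 12.04, 12.29 and 12.48, a change of 2.71 (SE 0.34). SNAI2 was the only mesenchymal gene called higher, and it was also called higher in the controls, at 1.44. VIM (vimentin) changed by -0.05 and FN1 (fibronectin) by 0.06, and neither was called. The other FN1 probe sets ranged from -0.32 to 0.92. ACTA2, smooth muscle actin, changed by 1.63 (adjusted p = 0.0761) and was not called. The mesenchymal genes called lower were S100A4, MYL9, ITGA5, SNAI1 and TPM1, at -1.38, -0.94, -0.59, -0.46 and -0.45. PLAT and THBS1, matrix genes, changed by -3.51 and -2.42. Of 30 matrix genes, 6 were called lower, a share of 20.0% against 20.9% over all genes, and 14 without replicate 3 of CsA 48 h and 3 without replicate 2 or 3 of CsA 12 h.

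Tubular injury markers did not move one way. HAVCR1, the injury marker KIM-1, read 10.54, 10.89 and 10.57 at 12 h and 9.48, 8.79 and 9.62 at 48 h, a change of -1.37 (SE 0.24, adjusted p = 0.00737 by limma). VCAM1, an adhesion molecule, read 9.43, 8.61 and 8.43 and then 4.81, 5.32 and 5.32, and SOX9, a repair factor, changed by -2.73. GDF15 read 11.23, 10.96 and 10.73 at 12 h and 14.40, 14.17 and 13.86 at 48 h, and was called higher. Of 14 markers, 2 were called higher (14.3%, against 22.1% over all genes) and 8 lower (57.1%, against 20.9%), and 5 lower without any 1 of the CsA 12 h arrays. In the controls 2 were also called higher and 8 lower, with a median of -0.33 against -0.43 under CsA. The difference between CsA and control was called for none of them.

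Complement and defence genes had 6 of 10 called lower (60%) and 1 higher (10%), against 20.9% and 22.1% over all genes. The median was -0.81, and the higher calls numbered 2 without CsA 48 h replicate 3. DEFB1, beta-defensin 1, read 8.25, 9.31 and 9.18 at 12 h and 3.04, 4.09 and 2.90 at 48 h, a change of -5.57 (SE 0.42, adjusted p = 0.00059 by limma). C1S, a complement protease, read 9.94, 10.14 and 10.20 and then 6.92, 7.03 and 7.60. CD55, which protects cells from complement, read 8.73, 8.80 and 8.65 and then 10.96, 11.01 and 11.32, and was the one called higher. LCN2, a siderophore-binding protein, changed by 1.92 (adjusted p = 0.0718) and was not called.

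Interferon-stimulated genes split. Of 20 measured, 9 were called higher (45%) and 6 lower (30%), against 22.1% and 20.9% over all genes. The higher calls numbered 13 without CsA 48 h replicate 3 and 2 to 5 without any 1 of the other CsA arrays. IRF1, an interferon-induced factor, read 8.01, 7.92 and 7.97 at 12 h and 11.08, 10.89 and 10.81 at 48 h, a change of 2.96 (SE 0.10, adjusted p = 0.000138 by limma). IFIT1, which binds viral RNA, read 9.11, 9.04 and 9.09 and then 6.20, 5.71 and 6.53. MX1 changed by 2.08, and OAS3 and IFI44 by -3.35 and -2.31, so antiviral members moved in opposite directions.

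Metabolic lists differed in how many members were called, against 42.9% over all genes. Of 31 genes of glycolysis and the hypoxia response, 9 were called higher and 10 lower (61.3% in all), and the lower calls numbered 6 without replicate 1 of CsA 48 h or replicates 1 or 3 of CsA 12 h. VEGFA, NDRG1 and SLC2A1 (GLUT1) changed by 3.06, 2.20 and 2.03, and the glycolytic enzymes PGK1, LDHA and ENO1 by -0.68, -0.91 and -0.70. GAPDH changed by -0.14 and was not called. Of 31 oxidative phosphorylation genes, 10 were called lower and none higher (32.3%) with a median of -0.18. Of 26 ribosome biogenesis genes, 4 were called higher and none lower (15.4%), and 1 and 2 were higher without CsA 12 h replicates 2 and 3. Of 27 lysosome and autophagy genes, 14 were called higher and 1 lower (55.6%), the latter GLA, alpha-galactosidase A, at -2.12, and 3 were lower without CsA 48 h replicate 3. WIPI1 and MAP1LC3B, which serve autophagosome formation, changed by 1.79 and 1.18.

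Of the genes for proteins that CsA acts on, 5 of 16 cyclophilins (31.2%) and 5 of 11 genes of the calcineurin and NFAT list (45.5%) were called, against 42.9% over all genes. PPIA, cyclophilin A and the main CsA-binding protein, read 15.20, 15.30 and 15.36 at 12 h and 15.14, 15.14 and 15.04 at 48 h, a change of -0.18 (SE 0.09, adjusted p = 0.167 by limma). PPIB, the cyclophilin of the ER, read 14.12, 14.02 and 14.31 and then 15.02, 15.08 and 15.47, a change of 1.04 (SE 0.15). Of the cyclophilins 3 were called higher and 2 lower, with none lower without CsA 12 h or CsA 48 h replicate 1 and 1 lower without CsA 12 h replicate 2 or 3. RCAN1, whose transcription calcineurin and NFAT drive, read 8.84, 8.55 and 8.62 and then 9.58, 9.85 and 9.57, a change of 1.00 (SE 0.13). PPP3CA, the catalytic subunit of calcineurin, changed by -0.42 (SE 0.19, adjusted p = 0.135). ABCB1, the drug pump P-glycoprotein that exports CsA, changed by -1.93 (SE 0.26), and CYP1B1 and TIPARP, targets of the aryl hydrocarbon receptor, by -2.34 and -0.81.

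Antioxidant genes had 11 of 21 called lower (52.4%) and 2 higher (9.52%), against 20.9% and 22.1% over all genes. GCLM, a subunit of the enzyme that makes the glutathione precursor, changed by -2.15, and AKR1C1, AKR1C2 and AKR1C3, aldo-keto reductases, by -1.47, -1.41 and -1.53. The cystine importer SLC7A11 and the pump ABCC3 were the members called higher, and the probe sets of ABCC3 ran from -0.27 to 1.07. HMOX1, heme oxygenase 1, changed by 0.24 and was not called. Of 8 metallothionein and zinc transport genes, 1 was called higher (12.5%) and 2 lower (25%), against 22.1% and 20.9% over all genes. None were called without CsA 48 h replicate 1 or CsA 12 h replicates 2 or 3, while 6 were called lower and none higher without CsA 12 h replicate 1, and none lower without CsA 48 h replicate 2.

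Some genes were not stable between arrays. FOS, an immediate early factor, read 6.53, 7.60 and 8.23 at 12 h and 6.69, 9.34 and 2.53 at 48 h, and its change of -1.26 (SE 1.67, adjusted p = 0.581 by limma) was not called. EGR1 read 12.82, 12.64 and 12.79 and then 13.24, 14.09 and 9.58, and the times overlapped. Replicate 3 was the lowest 48 h array for both genes under CsA, as the number 3 was in the controls, at 4.89 and 10.23. Without it EGR1 changed by 0.91 (adjusted p = 0.0385), the reverse of -0.45 with it.

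In the controls the same hours gave much of the same list of genes. Of 11154 genes, 4809 were called between control 48 h and control 12 h (43.1%), 2540 of them higher (22.8%) and 2269 lower (20.3%). Genes called higher in both numbered 1823, which is 74.1% of the CsA calls and 71.8% of the control calls, and genes called lower in both numbered 1606 (69.0% and 70.8%). Over genes, the log2 changes had a Pearson r of 0.877, a description across genes within the same 12 arrays, which are not independent replicates. The median absolute change was 0.41 under CsA and 0.34 in the controls. The median SD between the 48 h arrays was also larger under CsA, 0.223 against 0.168, and its part in this was not tested. In the controls the median change was -1.75 for DNA replication, -2.48 for mitosis, -2.10 for repair and 1.05 for p53 targets. Median changes in the proximal tubule, cholesterol and fatty acid lists were 0.01, -0.55 and -0.06 in the controls and -0.75, -1.07 and -0.43 under CsA.

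**Figure D4:**
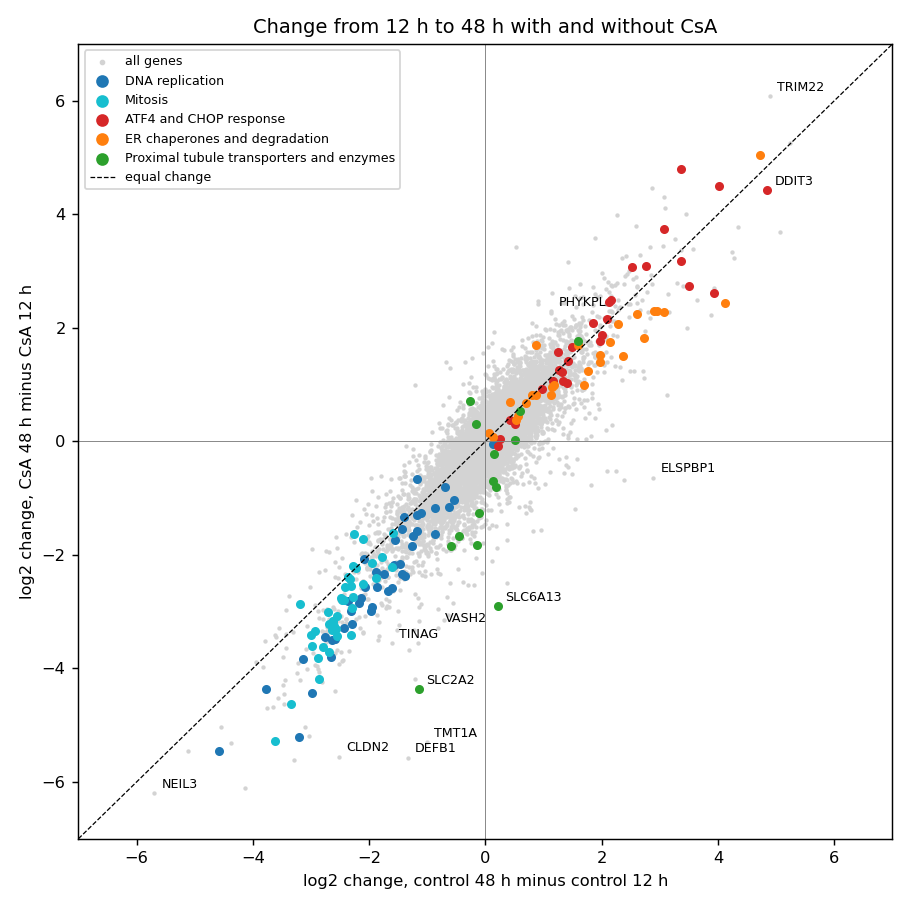
Log2 change from 12 h to 48 h in CsA arrays (y axis) against control arrays (x axis) for 11154 genes (grey), with 5 gene lists coloured and the dashed line of equal change. Replication and mitosis genes lie at lower left, with median differences between CsA and control of -0.63 and -0.47, and DEFB1 and TMT1A, which were called different, lie far below the line. Each gene is drawn from its brightest probe set, and the other TMT1A probe set changed by 0.08 under CsA.

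The change over time was called different between CsA and control for 43 genes (0.386%), 3 higher (0.0269%) and 40 lower (0.359%) under CsA. Before adjustment, 1825 genes had a limma p under 0.05. This fit gives all 4 groups 1 shared spread, while the median SD ran from 0.116 at control 12 h to 0.223 at CsA 48 h. In simulated data with few changed genes and unequal spread, false calls exceeded the nominal share, so the adjusted p-values here may be too small. TMT1A and DEFB1 had the largest differences, of -4.29 (SE 0.51, adjusted p = 0.018 by limma) and -4.23 (SE 0.71, adjusted p = 0.0441). The other TMT1A probe set changed by 0.08 from CsA 12 h to CsA 48 h, so the TMT1A difference rests on its brightest probe set. DEFB1 read 8.64, 9.52 and 9.38 at control 12 h and 7.31, 8.96 and 7.25 at control 48 h, and the times overlapped in the controls alone. The CsA and control arrays of 12 h with the same replicate number deviated together (r of 0.439, 0.540 and 0.372), those of 48 h did not in every pair (-0.116, 0.306 and -0.152), and with the number as a block 34 genes were called higher and 212 lower. Quantile normalization gave 10 higher and 35 lower, and median centring gave 2 and 10.

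Smaller differences were called for tubule, replication and lipid genes. CDH6 changed by -1.84 under CsA and -0.59 in the controls, a difference of -1.25 (SE 0.14, adjusted p = 0.0163 by limma). PAX8 changed by 0.72 and -0.27, a difference of 0.99 (SE 0.15), with the 48 h arrays apart between CsA and control. MCM6 and MCM4 differed by -0.98 and -0.97 and HMGCS1, IDI1 and ELOVL6 by -0.82, -0.72 and -1.24. TINAG, a basement membrane antigen of the tubule, read 12.02, 12.02 and 11.96 at CsA 12 h and 8.52, 8.49 and 8.35 at CsA 48 h, and 12.05, 11.78 and 11.69 and then 10.19, 10.87 and 9.66 in the controls. PHYKPL, a lyase, changed by 2.29 under CsA and 1.13 in the controls, and ACTR5, an INO80 subunit, by 1.11 and 0.05.

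These calls rested on few arrays. Of the 43 genes, none were kept without CsA 12 h replicate 1 or 3, or without any 1 of the control 12 h arrays. The calls kept numbered 3 without CsA 12 h replicate 2, CsA 48 h replicate 1 or control 48 h replicate 2, and 6 without control 48 h replicate 1. All 43 were kept without CsA 48 h replicate 2 or 3, or control 48 h replicate 3. By list, the difference was called for 2 of 43 replication genes and 2 of 18 cholesterol genes, all lower under CsA, against 0.386% of all genes. It was called for 2 of 14 proximal tubule genes, CDH6 lower and PAX8 higher. It was called lower for 1 gene each of the fatty acid (13 measured), complement (10), antioxidant (21), drug efflux (11) and lysosome (27) lists. No measured member of the other lists was called, the mitotic, ER, ATF4 and p53 lists among them. SLC4A4, SLC2A2 and CLDN2 differed by -1.69, -3.21 and -3.03 (adjusted p = 0.066, 0.073 and 0.12), so they were not called.

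**Figure D5:**
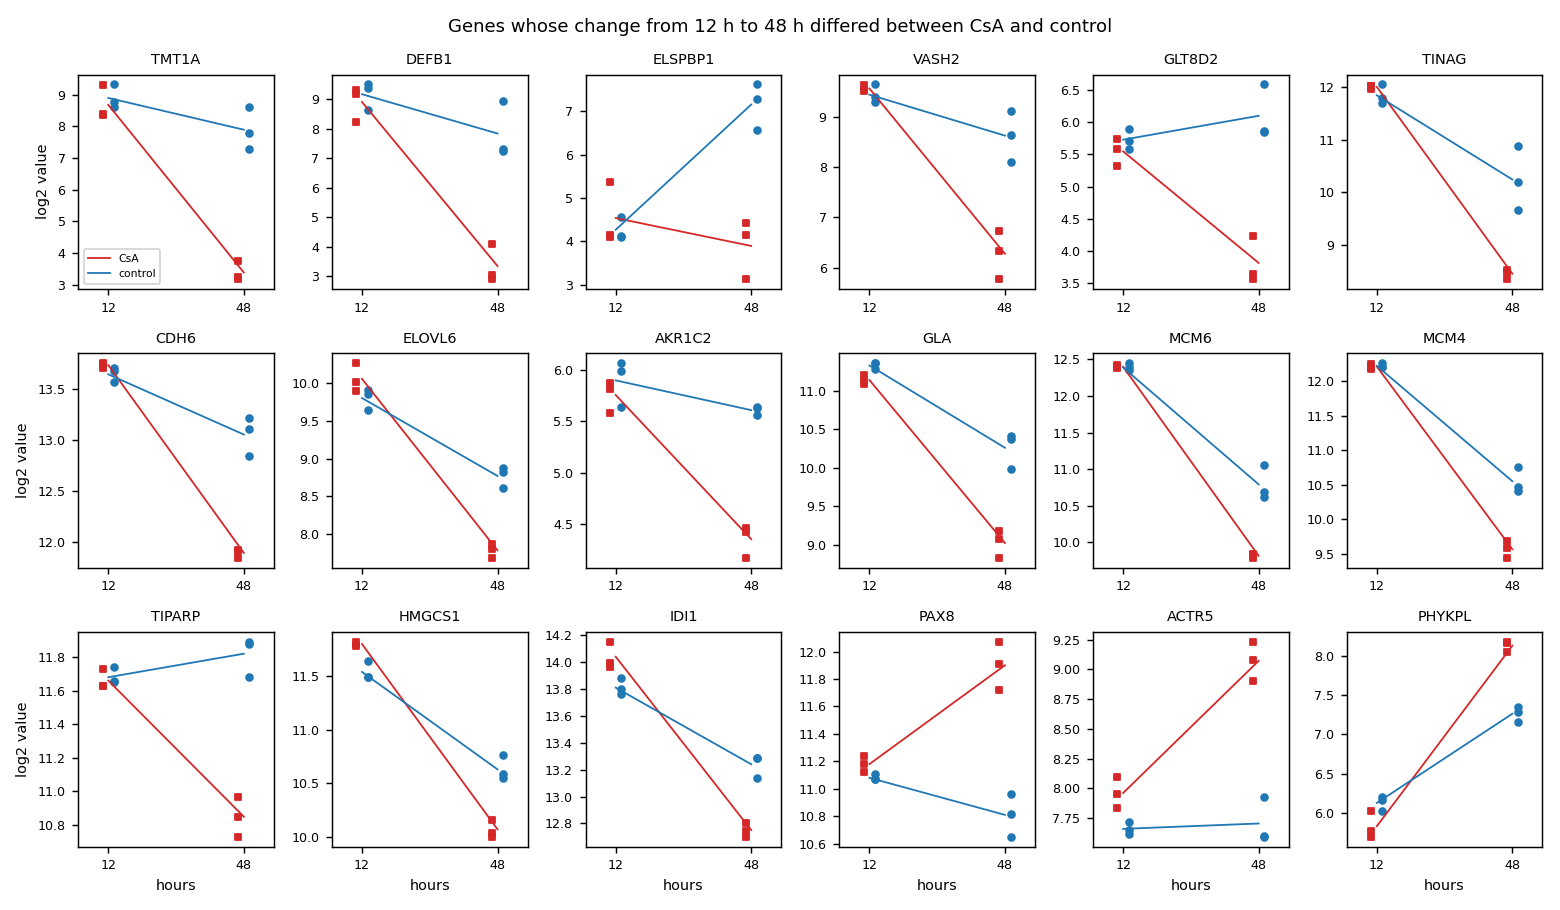
Log2 values (y axis) at 12 and 48 h (x axis) of the 18 named genes whose change over time was called different between CsA (red squares) and control (blue circles); each point is 1 array and lines join the group means. PHYKPL rises in both and further under CsA, ACTR5 and PAX8 change by 1.11 and 0.72 under CsA and 0.05 and -0.27 in the controls, ELSPBP1 rises in the controls and not under CsA, and the remaining genes end lower under CsA.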

How the data were processed

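Log2 probe set values were deposited by the authors as 1 table of 12 Affymetrix arrays, made with GCRMA per the submitters' processing notes. Its settings and version and the genome build are not given in the sources used for this. Of 54675 probe sets, 62 control probe sets were left out and those above 4 on at least 3 of the 12 arrays were tested (23671). Of these, 20625 carried 1 gene symbol, 1029 several and 2017 none by the platform annotation, and 20614 of the first matched RefSeq by gene identifier. A gene was read from its brightest single-symbol probe set (11154 genes).

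CsA 48 h was compared with CsA 12 h in limma 3.58.1 (R 4.3.3) on the 6 CsA arrays alone, the controls likewise, and the difference of the time changes on all 12 arrays. Tests were two-sided with Benjamini-Hochberg adjustment over all tested probe sets and a threshold of 0.05. The fits were tested on simulated data, where the share of false calls exceeded the nominal share when few genes changed and the groups had unequal spread. Tables and figures were made in Python 3.11.15.

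The members and the 35 gene lists were chosen with earlier results of these data known. Named genes are the 12 largest called rises and 12 largest falls with separated arrays and a mean of at least 6 in the higher group, up to 4 called members of each list by smallest adjusted p (2 by smallest p where none was called), up to 6 called differences in each direction, and PPIA, PPIB, PPP3CA, RCAN1, DNAJB9, HSPA5, DDIT3, HAVCR1, MKI67 and CDKN1A. Any other gene was named after its values were seen. Promoters are from RefSeq (GRCh38.p14).

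Replicate numbers of the control arrays pair the times by the rule that every same-numbered pair correlate above 0.1 in deviations from the group mean (0.142, 0.127 and 0.293); those of CsA do not (0.171, -0.015 and -0.075). The pairing comes from the labels' replicate numbers. No 2 of the 12 arrays held identical values. Alternatives were other filters, normalizations, priors, weights and probe set means, a fit of all 12 arrays, the replicate block and leaving out each array, and the closing section gives their effect.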

Additional observations from a re-analysis of the deposited data

Results flagged for a closer look

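The change from 12 h to 48 h differed between CsA and control, by the limma contrast over all 12 arrays, for the following named genes. Under CsA the change was lower than in the controls by log2 differences of -4.295 for TMT1A (adjusted p = 0.018), -4.234 for DEFB1 (0.0441), -3.527 for ELSPBP1 (0.0446), -2.466 for VASH2 (0.0386), -2.104 for GLT8D2 (0.0386) and -1.947 for TINAG (0.0499). ELSPBP1, an epididymal sperm-binding protein, changed by -0.64 under CsA (adjusted p = 0.325) and by 2.88 in the controls. VASH2, a vasohibin, changed by -3.28 and -0.81. TMT1A was read from its brightest probe set, while its other probe set changed by 0.08 under CsA.

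Differences of lesser size were -1.248 for CDH6 (adjusted p = 0.0163), -1.244 for ELOVL6 (0.0331), -1.118 for AKR1C2 (0.0441), -1.045 for GLA (0.0483), -0.9826 for MCM6 (0.0386), -0.9699 for MCM4 (0.0379), -0.9445 for TIPARP (0.0287), -0.8231 for HMGCS1 (0.037) and -0.7153 for IDI1 (0.0441). TIPARP changed by -0.81 under CsA and by 0.13 in the controls. The IDI1 probe sets ran from -1.29 to 0.51 under CsA.

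In the other direction the differences were 1.158 for PHYKPL (adjusted p = 0.0188), 1.064 for ACTR5 (0.0431) and 0.9908 for PAX8 (0.0386). Leaving out 1 array at a time ended the call of each of the 18 genes in 5 to 9 of 12 fits. The excess of false calls in simulated data with few changed genes and unequal spread bears on these calls too.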

How the results depend on the processing

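Leaving out 1 CsA array gave 2860 to 5537 probe sets and 1572 to 2780 genes called higher at CsA 48 h, the lowest of each without replicate 3 of CsA 12 h, and kept 3120 to 4597 of 4788 gene calls. CsA arrays of the 2 times share only a replicate number, and not every array correlated best with its own number; with that number as a replicate block, 3684 of 4788 calls were kept; the block moved no count over all genes for CsA or control by over 1.5 times, and moved 11 of 70 counts by list: ribosome biogenesis to 2 higher, mesenchymal genes to 2 higher and 3 lower, cholesterol, NF-kB and metallothionein genes to 0 higher, metallothionein and calcineurin genes to 1 lower, heat shock genes to 3 lower, fatty acid genes to 1 higher and complement genes to 2 higher. The CsA counts over all genes also stayed within 1.5 times with a minimum of 6, with no filter, with the filter over the CsA arrays, after median centring or quantile normalization, with trend and robust priors, with array weights and in the fit of all 12 arrays. That fit moved 7 of 70 counts by list and the filter over the CsA arrays none. In the mean over all probe sets 42 CsA calls changed sign. Of the 43 calls of a difference between CsA and control, that mean kept 32, and 1 changed sign. The difference between CsA and control was the least stable result. Its 3 higher and 40 lower genes became 34 and 212 with the replicate block, 11 and 60 with a minimum of 6, 3 and 23 with no filter, 2 and 10 after median centring, 10 and 35 after quantile normalization, 22 and 80 for means of probe sets, 10 and 82 with trend and robust priors, 160 and 530 with array weights, and 5 and 30 with weights by group. Leaving out 1 array gave 0 to 41 higher and 0 to 239 lower. Without both 48 h arrays of number 1, an alternative chosen after seeing the data, 0 were higher and 2 lower. The change of EGR1, -0.45, ranged from -1.345 to 0.9136 when 1 CsA array was left out, and reversed without CsA 48 h replicate 3 (adjusted p by limma = 0.0385). Apart from fits with fewer arrays or features, the cause was not tested. Array values near background limit the size of a fall.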

Other observations

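Other stress genes outside the lists rose from CsA 12 h to 48 h and were named after their values were seen. The tRNA synthetases WARS1, AARS1 and SARS1 changed by 2.35, 2.18 and 2.03 under CsA (adjusted p by limma = 0.000737, 0.000427 and 0.000417) and by 2.29, 2.47 and 1.71 in the controls. INHBE, an activin subunit gene, changed by 3.69 and 5.06, and ERN1, which encodes the ER stress sensor IRE1, by 2.72 and 2.61. H2AC6, a histone gene, changed by 3.40 and 3.58. TXNIP, which binds thioredoxin and restrains glucose uptake, changed by -3.87 under CsA and -2.47 in the controls.

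The shares of calls in the next lists lay on both sides of those over all genes (22.1% higher and 20.9% lower). Lower calls made up 35.3% of heat shock, 31.2% of mesenchymal and 27.3% of transforming growth factor beta and YAP genes. Higher calls made up 27.3% of calcineurin and NFAT genes. The shares were 15.8% higher and 10.5% lower for immediate early genes, and 21.4% and 14.3% for NF-kB targets. Of 20 genes of epidermal growth factor ligands and feedback, 3 were called higher (TGFA, BTC and EGFR, at 1.66, 2.57 and 0.77) and 3 lower (15.0% each), among them DUSP6 at -1.87. TGFA and EGFR changed by 0.04 and -0.06 in the controls, and their differences were not called (adjusted p by limma = 0.083 and 0.066). The 22 transforming growth factor beta and YAP genes include ligands and receptors as well as targets. Of these 22 genes, 2 were called higher (1 without CsA 12 h replicate 2 or 3 or CsA 48 h replicate 1) and 6 lower. ID1 changed by -2.38, AJUBA by 1.47 and the receptor gene TGFBR2 by -1.27. Of 19 immediate early genes, 3 were called higher and 2 lower, with ATF3 and KLF4 highest, 7 higher without CsA 48 h replicate 3, 4 lower without CsA 48 h replicate 2, and 1 lower without CsA 12 h replicate 1 or 2 or CsA 48 h replicate 1. Of 17 heat shock genes, 1 was called higher (HSPA9, at 1.11) and 6 lower (35.3%), with HSPE1 at -1.09, and 3 lower without any 1 of the CsA 12 h arrays. Of 16 mesenchymal genes, 1 was called higher and 5 lower, with 1 lower without CsA 48 h replicate 1 or any 1 CsA 12 h array, 3 lower without CsA 48 h replicate 2, and 2 higher without CsA 48 h replicate 2 or 3. Of 14 targets of NF-kB, 3 were called higher and 2 lower, with CXCL8 at -1.05. None of them were higher without CsA 12 h replicate 2 or 3 or CsA 48 h replicate 2, and 4 were lower without CsA 48 h replicate 2 and 1 without replicate 1 of either time. Of 11 calcineurin and NFAT genes 3 were called higher and 2 lower, and 1 lower without any 1 CsA array other than CsA 48 h replicate 3.

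A few genes were called in opposite directions under CsA and in the controls. CNIH3 changed by 0.79 and -0.63. ARID5B, BMPR2, PBLD, QPCT, RHOBTB1, STOX1, TMED6 and ZSCAN31 were called lower under CsA and higher in the controls, and of these 9 genes QPCT was the one whose difference was called (-0.82, adjusted p by limma = 0.0431). These genes were singled out after their values were seen.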
